A study of Rattus norvegicus with 2 samples.

Results

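Alveolar macrophages are the resident phagocytes of the lung's airspaces. Here they were taken as barcodes with at least 200 detected genes in which at least 3 of 8 genes (Mrc1, Fabp4, Plet1, Abcg1, Lpl, Slc39a2, Gpnmb and Naaa) had a UMI, a unique molecular identifier that stands for 1 captured RNA molecule, and in which the 8 genes together held at least 0.5% of the barcode's UMIs. This gate took 9902 of the 33759 barcodes, 8071 of 21117 in the control library and 1831 of 12642 in the explosion library. The gate genes were chosen from these same data, so their levels below describe the rule and support nothing.

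The study asked how the cells of the rat lung varied after a blast. The control group was lung of SPF rats that were not exposed, and the explosion group was lung of SPF rats exposed to a gas explosion. Both tissues were cut up, digested with collagenase IV, papain and DNase I, freed of red and dead cells, and profiled by droplet-based 3' single-cell RNA sequencing (10x Chromium). Strain, age, time after the blast and the number of animals behind a library are not given in the sources used here. Each group had 1 library, so no difference between the groups has a replicate check, no test was run, and exposure cannot be told apart from animal, dissociation, loading or sequencing. Values in parentheses after a share or a ratio are 95% intervals and cover counting error only.

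Alveolar macrophages take up spent surfactant and inhaled particles, break the lipids down in lysosomes and export the cholesterol, and they depend on GM-CSF and the nuclear receptor PPARG for their identity. Fabp4 carries fatty acids, Lpl splits triglycerides, Abcg1 exports cholesterol, Mrc1 is the mannose receptor, and Naaa is a lysosomal amidase. Macrophages that have engulfed lipid or debris are known for Gpnmb, a lysosomal glycoprotein, for Trem2, a lipid-sensing receptor, and for Spp1, Fabp5 and the protease Ctsk. Igf1 encodes a growth factor and Prg4 the lubricating proteoglycan lubricin.

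Genes that the gate did not use were set against the ungated barcodes of the same library, in CPM, the UMIs of a gene per 1000000 UMIs of the summed group. This is a description of the label and not a test, since the cells were chosen by their expression. Scgb1a1, the club cell secretory protein gene, took 382910 CPM of ungated and 20823 CPM of gated control barcodes and so lifts the CPM of other genes in the gate, and counts are given with it left out of the totals. Of 19 other genes known from alveolar macrophages with a mean of at least 20 CPM in control, 12 were at least 2-fold higher in the gate, against 10.5% of all 6292 genes measured that way, and in explosion 9 of 17 were, against 10.5% of 7862. With Scgb1a1 in the totals it was 16 of 18 against 33.3% in control and 10 of 17 against 12.6% in explosion. The CPM values below have it in the totals. Krt79 stood at 755 CPM in gated and 153 CPM in ungated control barcodes, and at 716 and 51.0 CPM in the explosion library. Pparg, the receptor named above, stood at 129 and 30.7 CPM in control and at 179 and 17.5 CPM in explosion. Bhlhe41, a repressor known from resident alveolar macrophages, stood at 214 and 33.6 CPM in control and at 288 and 23.9 CPM in explosion. Among general macrophage markers, lysozyme (Lyz2) stood at 33523 against 7281 CPM in control and 19050 against 3629 CPM in explosion. Csf1r, the M-CSF receptor gene, was lower in the gate in explosion, at 208 CPM in gated and 394 CPM in ungated explosion barcodes. Marco, the scavenger receptor that often defines these cells, had 0 UMIs in every barcode of both libraries, gated or not, so it bears on the label neither way. The annotation used for counting is not known here, and whether it could count Marco was not tested. Some known genes went against the label. Chi3l1 and Krt19 were lower in the gate in both libraries, with Chi3l1 at 11.2 against 152 CPM in control and 10.8 against 95.9 CPM in explosion. Itgax (CD11c) was higher in the gate in control, at 59.1 against 15.6 CPM, and lower in explosion, at 69.6 against 102 CPM.

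Inside the gate, barcodes were also placed by 4 genes, Igf1 and Prg4 against Gpnmb and Trem2, as described further on. Spp1 and Ctsk were the genes that differed most between those sides, so the windows around the start sites of these last 4 genes are printed here. Each runs from 250 bases before to 50 bases after the RefSeq start site in assembly GRCr8, 5′ to 3′ on the gene's strand, with matches to the motifs searched in capitals. The windows lie at chr4:79340878-79341177 on the plus strand for Gpnmb, chr9:20151730-20152029 on the minus strand for Trem2, chr14:5619755-5620054 on the minus strand for Spp1 and chr2:185747298-185747597 on the plus strand for Ctsk.
Gpnmb: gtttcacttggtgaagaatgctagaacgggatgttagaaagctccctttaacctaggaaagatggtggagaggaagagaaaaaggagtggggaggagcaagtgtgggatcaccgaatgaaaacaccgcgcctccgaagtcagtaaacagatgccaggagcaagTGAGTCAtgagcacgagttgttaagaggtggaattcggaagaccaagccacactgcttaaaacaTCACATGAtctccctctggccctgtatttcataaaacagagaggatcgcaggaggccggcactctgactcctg
Trem2: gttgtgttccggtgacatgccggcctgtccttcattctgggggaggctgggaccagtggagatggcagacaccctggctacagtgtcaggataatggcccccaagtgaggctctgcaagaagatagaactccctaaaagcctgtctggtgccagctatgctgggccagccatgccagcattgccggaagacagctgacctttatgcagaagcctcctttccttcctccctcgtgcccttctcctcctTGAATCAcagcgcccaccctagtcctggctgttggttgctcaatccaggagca
Spp1: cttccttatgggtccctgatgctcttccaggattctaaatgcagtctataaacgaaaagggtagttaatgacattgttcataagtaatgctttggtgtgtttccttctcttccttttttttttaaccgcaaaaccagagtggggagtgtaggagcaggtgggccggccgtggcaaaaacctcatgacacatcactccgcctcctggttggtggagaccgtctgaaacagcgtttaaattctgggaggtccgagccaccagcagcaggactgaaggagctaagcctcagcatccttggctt
Ctsk: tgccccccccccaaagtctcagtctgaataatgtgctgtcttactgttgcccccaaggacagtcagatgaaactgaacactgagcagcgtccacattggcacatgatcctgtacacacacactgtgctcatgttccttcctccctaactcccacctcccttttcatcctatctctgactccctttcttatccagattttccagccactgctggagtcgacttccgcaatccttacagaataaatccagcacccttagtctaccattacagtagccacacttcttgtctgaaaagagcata
The motifs, searched on both strands, were TCACATGA (the M-box of MITF and TFE factors, 1.16% of 33465 RefSeq windows), CACGTG (the E-box of the same factors, 6.42%), TGANTCA (the AP-1 site, 7.33%) and GAGGAAGT (a PU.1 site, 2.42%). TCACATGA was added after these windows had been read. The Gpnmb window held TGAGTCA from 87 bases and TCACATGA from 23 bases before the start site. The Trem2 window held TGAATCA from 3 bases before it. The Spp1 and Ctsk windows held none of the 4 motifs, which says only that these letters are not in these windows. The windows of Igf1 and Prg4 held none either. A match is a stretch of letters and not a binding site.

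The 2 libraries differed in depth. The control library held 139486248 UMIs with a median of 4917 per barcode, and the explosion library 9017416 with a median of 538.5. Gated barcodes had a median of 6159 UMIs and 2327 genes in control and 1211 UMIs and 856 genes in explosion. Mitochondrial UMIs took a median of 0.624% of a gated control and 2.64% of a gated explosion barcode. Ribosomal protein genes took 11.7% of gated UMIs in control and 4.57% in explosion. Scgb1a1 took 2.08% and 0.451%. Called doublets made up 694 gated control barcodes (8.60%) and 117 gated explosion barcodes (6.39%), and were kept. The libraries shared 85 barcode sequences, of which 4 were gated in both.

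A smaller share of the explosion library's barcodes fell in the gate, but the size of that difference followed the depth of the barcodes and the strictness of the gate. The gate held 38.2% (37.6 to 38.9) of control and 14.5% (13.9 to 15.1) of explosion barcodes, 23.7 percentage points apart. Among explosion barcodes under 500 UMIs, a depth absent from the control library, 43 of 5897 (0.729%) were gated. From 500 to under 1000 UMIs the gate held 8.18% (176 of 2151) of control and 10.6% (406 of 3833) of explosion barcodes. From 1000 to under 2000 UMIs it held 6.78% (218 of 3213) of control and 48.7% (1286 of 2642) of explosion barcodes, and from 2000 to under 4000 UMIs 36.0% and 35.7%. The order of the libraries was therefore not the same at every depth. Control barcodes of 4000 to under 8000 UMIs were the richest in gated cells, at 62.9%. With every barcode thinned to 500 UMIs before the gate, the shares were 24.6% and 20.8%. With a gate of at least 4 genes and 1% of UMIs they were 8.10% in control and 8.08% in explosion, which ended the difference.

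**Figure D1:**
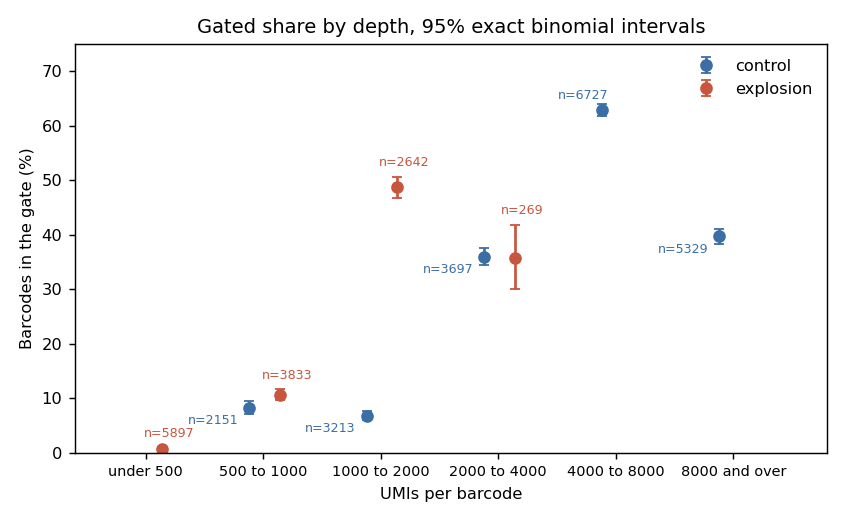
Share of barcodes in the alveolar macrophage gate (y axis, percent) by UMIs per barcode (x axis), in control (blue) and explosion (red), with 95% exact binomial intervals and the number of barcodes in each bin. From 1000 to under 2000 UMIs the explosion library stood at 48.7% and control at 6.78%, and from 2000 to under 4000 UMIs they stood at 35.7% and 36.0%.

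The threshold cut through a continuous range. In control 1581 gated barcodes had 0.5 to 0.6% of their UMIs in the gate genes, and 1248 ungated barcodes with at least 3 of the genes had 0.4 to 0.5%. Lyz2 stood at 32647 CPM just inside and 29674 CPM just outside, and Cd68, a lysosomal macrophage protein, at 573 and 507 CPM. In explosion 105 barcodes lay just inside and 77 just outside, with Cd68 at 716 and 663 CPM. All 8 gate genes had a UMI in 3773 gated control barcodes (46.7%) and in 47 gated explosion barcodes (2.57%).

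The 8 gate genes did not shift together between the libraries, and they are given as a description of the rule. Lpl, which splits triglycerides, stood at 324 CPM in gated control and 1009 CPM in gated explosion barcodes. Gpnmb stood at 1230 and 2674 CPM, Abcg1 at 835 and 1590 CPM, and Mrc1 at 1430 and 2417 CPM. Plet1, a surface protein, was near level at 898 and 1156 CPM, and Naaa at 2231 and 2149 CPM. Fabp4 went the other way, from 928 CPM in control to 272 CPM in explosion, and the zinc transporter Slc39a2 from 453 to 252 CPM. In the stricter gate Fabp4 was 5.99-fold lower in explosion, against 3.41-fold in the gate used here. Of the genes used later to divide the cells, Igf1 stood at 1461 CPM in control and 2506 CPM in explosion, and Prg4 at 2097 and 2940 CPM. Each of these genes was lower in the ungated barcodes of the same library.

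**Figure D2:**
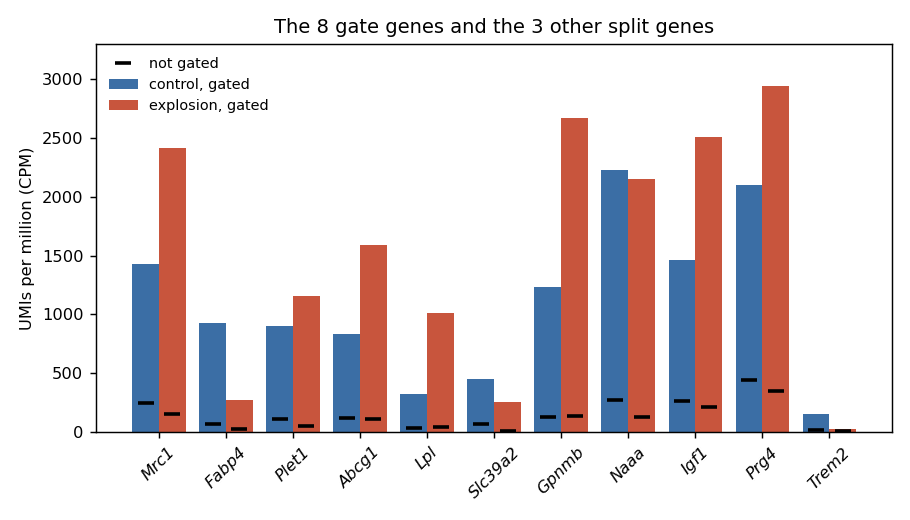
CPM (y axis) of the 8 gate genes and of Igf1, Prg4 and Trem2 in gated barcodes of control (blue bars) and explosion (red bars), 1 library each, with black marks for the ungated barcodes of the same library. Lpl stood at 1009 CPM in explosion and 324 CPM in control, while Fabp4 stood at 272 and 928 CPM.

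Between the libraries, gated explosion barcodes held more of the matrix and cytokine protein gene Spp1, the crosslinking enzyme gene Tgm2 and the cytoskeletal linker gene Dst, and less of Trem2, of the leukotriene synthase gene Ltc4s, of the ferritin light chain gene Ftl1 and of the respiratory chain genes Ndufa13 and Cox7a2. Of 6455 genes with a mean of at least 20 CPM, 1891 were at least 2-fold higher in explosion (29.3%) and 605 at least 2-fold lower (9.37%). The median gene was itself higher, by 0.54 on the log2 CPM ratio scale. Set against that median gene, the split turned over, with 640 genes (9.91%) at least 2-fold higher and 1239 (19.2%) at least 2-fold lower. A ratio below is of CPM unless it is said to be relative to the median gene.

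Spp1 stood at 36.8 CPM in control and 358 CPM in explosion, 9.74-fold higher (8.97 to 10.6). In the stricter gate it was 6.13-fold higher. Thinned to 500 UMIs, 82 of 8071 gated control barcodes (1.02%) and 115 of 1788 gated explosion barcodes (6.43%) held a Spp1 UMI, and unthinned 4.31% and 10.1%. In B cells, taken by a gate of the same form and known to lack Spp1, the thinned share was 1 of 586 in control and 0 of 34 in explosion. The exact interval of that 0 reaches 10.3%, so free RNA in the explosion library was not measured finely. The median depth of those B cell barcodes was 1177 and 371 UMIs. Tgm2, which is known to help macrophages engulf dying cells, stood at 31.9 and 214 CPM, 6.69-fold higher (6.04 to 7.40), and 4.00-fold in the stricter gate. After thinning, a Tgm2 UMI was held by 1.31% of gated and 0.341% of B cell barcodes in control. In explosion it was held by 8.28% of gated and 2 of 34 B cell barcodes, so the part of free RNA there was not resolved. Cdh23, a cadherin, stood at 15.3 and 98.2 CPM, and the sorting nexin Snx32 at 16.3 and 101 CPM. Both were over 6-fold higher in explosion. Arhgap30 stood at 54.6 and 315 CPM, and Ralgapa2, which restrains Ral GTPases, at 136 and 707 CPM. Dst, which encodes a giant cytoskeletal linker, stood at 573 CPM in control and 2871 CPM in explosion, 5.01-fold higher (4.88 to 5.14). Ttpal and Spata21 completed the 10 highest genes besides Mki67, with ratios of 5.46 and 5.45.

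Mki67, a nuclear protein of cycling cells, stood at 17.6 CPM in control and 109 CPM in explosion, 6.16-fold higher (5.34 to 7.08), and 16.4-fold in the stricter gate. In the explosion library 5.68% of gated barcodes and 5.14% of B cell barcodes held a Mki67 UMI, and after thinning 2.85% of gated and 6 of 34 B cell barcodes did. Ungated barcodes stood at 25.2 CPM in control and 96.8 CPM in explosion. In control the thinned shares were 0.496% of gated and 0.171% of B cell barcodes. The 251 Mki67 UMIs of the gated explosion barcodes lay in 104 barcodes, of which 21 held 50%. B cells can cycle themselves, and the part of free RNA in the Mki67 level was not tested.

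Among the lowest genes, Dstnl1, a relative of the actin-severing protein destrin, stood at 189 CPM in control and 12.1 CPM in explosion, 15.6-fold lower (10.8 to 23.5). Ltc4s, which makes leukotriene C4, stood at 211 and 29.4 CPM, 7.19-fold lower (5.66 to 9.26). Trem2 stood at 154 and 23.3 CPM, 6.58-fold lower (5.04 to 8.76), and 11.1-fold lower in the stricter gate. A Trem2 UMI was held by 5.20% of control and 0.727% of explosion barcodes after thinning, against 1.19% of control B cell barcodes. Ltc4s was held by 9.92% of control and 1.29% of explosion barcodes, against 0.341% of control B cell barcodes and 0 of 34 in explosion. Ftl1 stood at 4341 and 813 CPM, 5.34-fold lower, and its heavy chain partner Fth1 at 22637 and 6736 CPM, 3.36-fold lower. Ndufa13 and Cox7a2, subunits of respiratory complexes I and IV, stood at 327 and 310 CPM in control and at 61.4 and 61.0 CPM in explosion. Glrx2, Dph3, Mrpl57 and the copper chaperone gene Atox1 were between 4.43-fold and 4.87-fold lower. Ftl1 and Dstnl1 have near-identical copies in the genome between which counting can split reads, so their levels are uncertain.

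These 20 genes went the same way outside the gate. In ungated barcodes 10 of the 10 highest and 10 of the 10 lowest genes differed in the same direction and by over 2-fold. The median gene there, over genes measured in both sets, was itself 1.13 higher on the log2 scale. That is past 2-fold, so the count of the 10 highest genes says little about them. The share of all genes past 2-fold in ungated barcodes was not counted. Spp1 was 5.49-fold higher there, from 4.46 to 24.5 CPM, Tgm2 10.3-fold higher and Arhgap30 11.2-fold higher. In T cells, taken by a gate of the same form, 9 of the 10 highest and 10 of the 10 lowest kept their direction. Some of these rested on few UMIs, such as Tgm2 on 2 in explosion and 4 in control. In interstitial macrophages by such a gate, Spp1 stood at 0.303 times (2 and 29 UMIs) and Mki67 at 0.646 times (5 and 34 UMIs) control. Both went the other way there, and the rest kept their direction, with Trem2 at 0.789 times control. Whether any of the 20 differed more in alveolar macrophages than elsewhere was not tested.

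**Figure D3:**
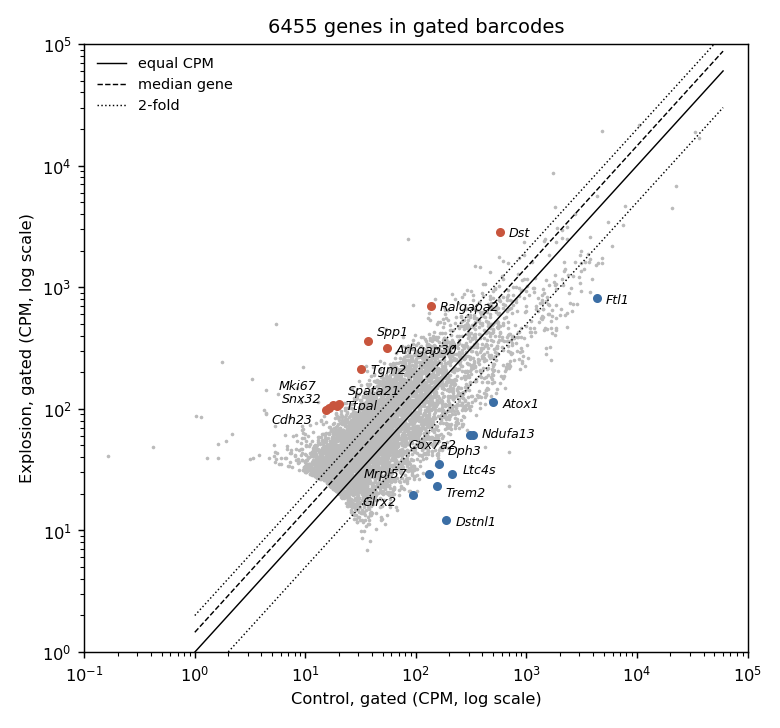
CPM in gated control barcodes (x axis, log scale) and gated explosion barcodes (y axis, log scale) of the 6455 genes measured, 1 point per gene. The 10 highest (red) and 10 lowest (blue) named genes lie beyond the dotted 2-fold lines, and the dashed line marks the median gene, 0.54 above equal CPM on the log2 scale.

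Markers of other cell types moved too, in both directions, and their part in the differences was not tested. Summed over 8 club cell markers, the gate held 22298 CPM in control and 4622 CPM in explosion, with 0 of 8 higher in explosion. Fibroblast markers stood at 84.7 and 364 CPM with 8 of 8 higher. Nonclassical monocyte markers stood at 155 and 419 CPM with 8 of 8 higher, and classical monocyte markers at 47.8 and 138 CPM with 6 of 7 found higher and F13a1 at 0 in explosion. Interstitial macrophage markers stood at 18.2 and 29.0 CPM with 7 of 8 higher. Neutrophil markers stood at 80.6 and 42.4 CPM, with Mmp8 and Fpr1 at 0 in explosion. Each of these sums except that of nonclassical monocytes in control was higher in the ungated barcodes of the same library. B cell markers stood at 405 CPM in gated and 198 CPM in ungated control barcodes, and conventional dendritic cell markers at 152 and 55.0 CPM. In explosion both were lower in the gate, at 284 against 360 CPM and at 79.1 against 130 CPM. Barcodes that also passed a gate of another cell type made up 1.60% of gated control and 1.97% of gated explosion barcodes. Club cells and red cells were given no such gate, so overlap with them was not counted.

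The alveolar macrophage identity genes outside the gate stayed near or below the median gene. Of 17 measured, 2 were at least 2-fold higher and 2 at least 2-fold lower, against 29.3% and 9.37% of all genes, with a median log2 ratio of 0.24 against 0.54. Tgm2 and Ltc4s, given above, were the outermost members. Il18, a cytokine of the interleukin-1 family, stood at 1286 CPM in control and 518 CPM in explosion, 2.48-fold lower (2.34 to 2.63). The tetraspanin gene Cd9 stood at 3121 and 1577 CPM, 1.98-fold lower. Among 20 measured macrophage transcription factors 4 were at least 2-fold higher and 0 at least 2-fold lower, against the same shares, with a median log2 ratio of 0.55, close to that of the median gene. Mitf, a regulator of lysosomal genes, stood at 86.1 and 195 CPM, 2.26-fold higher (2.05 to 2.49), and Zeb2, Irf8 and Maf were between 2.15-fold and 2.54-fold higher. Spi1, which encodes PU.1, was level at 428 and 419 CPM.

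In the handling of surfactant lipid, uptake and breakdown genes stayed close to level and cholesterol export genes stood with the median gene. Of 17 measured genes for uptake and breakdown, 1 was at least 2-fold higher and 1 at least 2-fold lower, against 29.3% and 9.37% of all genes, with a median log2 ratio of 0.10. Psap, whose product feeds lysosomal sphingolipid breakdown, stood at 1803 CPM in control and 4529 CPM in explosion, 2.51-fold higher (2.46 to 2.56). The acid lipase gene Lipa stood at 844 and 1279 CPM. Fabp5, a fatty acid carrier, stood at 493 and 234 CPM, 2.10-fold lower (1.93 to 2.29), and the lipid droplet coat gene Plin2 at 1388 and 860 CPM. Of 11 measured cholesterol export and LXR target genes 3 were at least 2-fold higher, near the share of all genes, and 0 lower, with a median of 0.52. The exporter gene Abca1 stood at 186 and 562 CPM, 3.03-fold higher (2.85 to 3.21). Of 10 measured cholesterol and fatty acid synthesis genes 2 were higher, Acaca and Srebf2, and 1 was lower, Fdps, with a median of 0.58.

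Lysosomal genes were mixed. Of 19 measured, 3 were at least 2-fold higher and 0 at least 2-fold lower, against 29.3% and 9.37% of all genes, with a median log2 ratio of 0.34. Relative to the median gene 0 were higher and 5 lower. The proton pump subunit gene Atp6v1a stood at 127 CPM in control and 339 CPM in explosion, 2.67-fold higher. A membrane subunit of the same pump, Atp6v0c, went from 1210 to 697 CPM, 1.73-fold lower. Grn, which encodes progranulin, stood at 394 and 901 CPM and the protease gene Lgmn at 288 and 584 CPM. Of 16 genes known from lipid-associated macrophages 3 were higher and 3 lower, against 29.3% and 9.37% of all genes, with a median of -0.23, and the stricter gate moved the median to -0.83. Relative to the median gene 2 of these were higher and 8 lower. Spp1, the metalloprotease gene Mmp14 (4.13-fold, to 61.8 CPM) and Apoe (17.3 and 38.5 CPM) were the higher members. Trem2, its signalling partner Tyrobp (4858 and 1742 CPM) and Fabp5 were the lower ones. Of 11 measured scavenger and uptake receptors 2 were higher and 0 lower, against the same shares. These were Lrp1, an endocytic receptor, at 264 and 835 CPM, and Axl, a receptor for dying cells, at 128 and 344 CPM.

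Among inflammatory genes, single members stood far above the median gene. The cytokine and interferon lists stayed near it, and the chemokine list stood below it, with 5 of 8 members lower. Of 12 measured cytokine and NF-kB genes, 5 were at least 2-fold higher and 1 at least 2-fold lower, against 29.3% and 9.37% of all genes, with a median log2 ratio of 0.79. Relative to the median gene 2 of the 12 were higher and 1 lower. The feedback inhibitor genes Tnfaip3 (71.1 CPM in control and 241 CPM in explosion) and Nfkbiz (35.0 and 114 CPM) were 3.39-fold and 3.25-fold higher. Il1b stood at 68.7 and 144 CPM, 2.10-fold higher (1.87 to 2.35), and its receptor antagonist Il1rn was 2.17-fold higher. For Tnf, at 35.8 and 41.1 CPM, the interval held equal levels (0.923 to 1.41). Of 8 measured chemokines 3 were higher and 0 lower, against the same shares, with a median of -0.12. Cxcl1, which attracts neutrophils, stood at 36.2 and 122 CPM, 3.38-fold higher, and its relative Cxcl2 at 350 and 292 CPM. Of 11 measured interferon response genes 4 were higher and 1 lower, near the shares of all genes, with a median of 0.86. Ifi44 stood at 5.76 and 35.0 CPM and Ifih1, an RNA sensor, at 16.7 and 41.1 CPM, while Ifi27 went from 899 to 393 CPM.

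MHC class II genes had 3 of 7 members at least 2-fold higher and 0 lower, against 29.3% and 9.37% of all genes, with a median log2 ratio of 0.43, below the 0.54 of the median gene. Cd74, the invariant chain, stood at 61.4 CPM in control and 210 CPM in explosion, 3.42-fold higher (3.10 to 3.76), and RT1-Da and RT1-Ba were 3.13-fold and 3.11-fold higher. RT1 genes have close copies, so their counts are uncertain. The peptide loader RT1-DMa went from 173 to 94.7 CPM. With only genes of at least 100 CPM the median of this list was -0.18. Of 11 measured growth and repair factors 5 were higher and 0 lower, against 29.3% and 9.37% of all genes, with a median of 0.83. Osm, a cytokine of the interleukin-6 family, stood at 21.5 and 86.9 CPM, 4.04-fold higher (3.46 to 4.69), and Hgf, a growth factor for alveolar epithelium, at 38.3 and 126 CPM. The protease gene Plau was 3.18-fold higher and the inhibitor gene Timp1 1.28-fold lower. At 100 CPM and over the median of the growth and repair list was 0.23. Of 10 measured complement genes 3 were higher, Itgb2, Cd55 and C5ar1, near the share of all genes, and 0 were lower.

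Antioxidant genes leaned lower, and the iron and heme list held values far out in both directions. In the iron and heme list 3 of 11 members were at least 2-fold higher and 2 lower, against 29.3% and 9.37% of all genes, with a median log2 ratio of 0.69. Hmox1, which breaks down heme, stood at 98.0 CPM in control and 402 CPM in explosion, 4.10-fold higher (3.82 to 4.40), and the transferrin receptor gene Tfrc was 2.53-fold higher, against the lower ferritins Ftl1 and Fth1. Of 17 measured antioxidant genes 2 were higher and 7 lower, against the same shares, with a median of -0.71. Mt1, a metallothionein, stood at 973 and 226 CPM, 4.31-fold lower (3.96 to 4.71), and thioredoxin (Txn1) at 5956 and 2199 CPM. Catalase (Cat) went the other way, at 146 and 313 CPM. Of 12 measured eicosanoid genes 0 were higher and 4 lower, against the same shares, Ltc4s, Mgst1, Mgst2 and Mgst3, with a median of -0.16, or -0.78 at 100 CPM and over. Alox5, which starts leukotriene synthesis, stood at 133 and 186 CPM, and Alox5ap, which presents the substrate to it, at 673 and 392 CPM.

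Oxidative phosphorylation genes were mostly lower, and chromatin and proliferation genes mostly higher. Of 36 measured genes of oxidative phosphorylation 0 were at least 2-fold higher and 28 at least 2-fold lower, against 9.37% of all genes, with a median log2 ratio of -1.41. Cox8a stood at 905 CPM in control and 238 CPM in explosion, 3.80-fold lower (3.49 to 4.14). Atp5f1b (453 and 726 CPM, 1.61-fold), Sdhc (109 and 167 CPM) and Atp5f1a (192 and 288 CPM) were higher. Of 22 chromatin regulators 20 were higher, against 29.3% of all genes, and 0 lower, with a median of 1.57. Kmt2d, a histone methyltransferase, stood at 35.4 and 224 CPM, 6.31-fold higher (5.71 to 6.96). Of 9 measured proliferation genes 6 were higher and 0 lower, against the same shares, with a median of 1.99. Among these the replication helicase gene Mcm6 stood at 9.36 and 66.6 CPM, while Hmgb2 stood at 64.0 and 61.0 CPM. Relative to the median gene these proliferation genes stood at 1.44 in the gate and 0.64 outside it. Their background in other cell types was not measured.

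**Figure D4:**
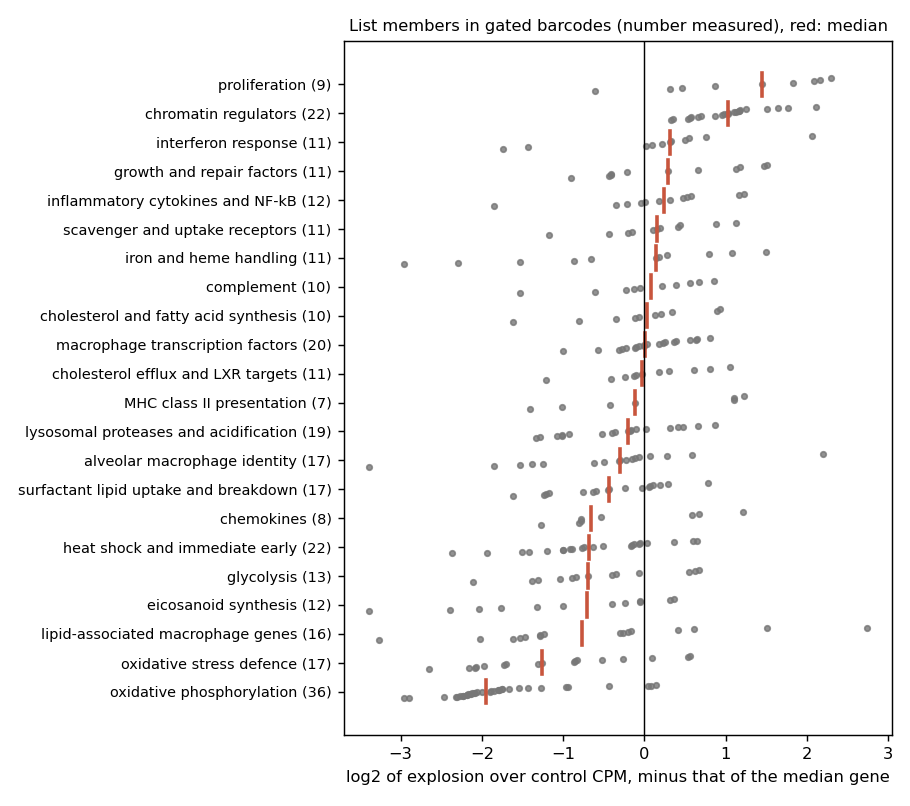
Log2 ratio of explosion over control CPM in gated barcodes, minus that of the median gene (x axis), for every measured member (grey points) of 22 gene lists (y axis, number measured), with the list median in red. Oxidative phosphorylation had the lowest median, -1.95, and proliferation the highest, 1.45.

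Oxidative phosphorylation and chromatin genes went the same way outside the gate. Over 5570 genes measured in gated and in ungated barcodes, and relative to the median gene of each, oxidative phosphorylation stood at -1.96 in the gate and -2.30 outside it on the log2 scale. Chromatin regulators stood at 1.01 and 1.20. Cytokine and NF-kB genes stood at 0.38 in the gate and 1.5 outside. Interferon response genes stood at 0.31 in the gate and 1.75 outside, and MHC class II genes at -0.12 and 0.40. Scavenger receptors stood at 0.14 in the gate and -0.62 outside, and cholesterol and fatty acid synthesis at 0.03 and -0.54. Ungated barcodes are a mixture of cell types, and these differences were not tested.

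Within the control library most gated cells leaned to Igf1 and Prg4, and the Gpnmb and Trem2 side held more Ctsk, Spp1, Fabp5 and lysosomal RNA and less RNA of the leukotriene enzymes. A barcode was placed on the side whose pair of genes had more UMIs, given at least 2. The Igf1 and Prg4 side held 7145 of 8071 barcodes (88.5%, 87.8 to 89.2) and the Gpnmb and Trem2 side 785 (9.73%, 9.09 to 10.4), with 92 at equal counts and 49 below 2 UMIs on both sides. Depth was alike, at a median of 6154 and 6486 UMIs, and called doublets made up 8.45% and 9.04%. In the explosion library 1392 of 1831 barcodes (76.0%) and 290 (15.8%, 14.2 to 17.6) fell on the 2 sides. With both libraries thinned to 500 UMIs, the Gpnmb and Trem2 side took 16.6% (15.5 to 17.7) of the placed barcodes in control, and in explosion it took 20.3% (18.2 to 22.6). Trem2 had little part in the explosion shares, with 27 UMIs on its side before thinning, so the sides are not fully alike between the libraries.

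No gap lay between the sides, and whether they hold separate groups of cells was not tested. The share of Igf1 and Prg4 among the UMIs of the 4 genes, taken in the 7479 control barcodes with at least 10 such UMIs, had a single hump with a median of 0.783, and 1031 barcodes (13.8%) lay between 0.4 and 0.6. In 899 explosion barcodes the median was 0.70 and 201 (22.4%) lay in that range. Igf1 and Prg4 hardly tracked each other, while Gpnmb and Trem2 did. Thinned to 2000 UMIs, control barcodes with at least 4 Igf1 UMIs held Prg4 at 1.10 times (1.07 to 1.13) the level of those with at most 1. Those with at least 3 Gpnmb UMIs held Trem2 at 3.61 times (3.23 to 4.05) the level of those with at most 1. Across the pairs, the 1053 thinned control barcodes with a Trem2 UMI held Igf1 at 1.02 times (0.987 to 1.06) the level of the 6624 without. Barcodes with at least 3 Gpnmb UMIs held Igf1 at 0.991 times (0.962 to 1.02) and Prg4 at 0.811 times the level of those with at most 1. Igf1 was thus level across the Trem2 and the Gpnmb division, and of Igf1 and Prg4 it was Prg4 that stood lower where Gpnmb was high.

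Of 5599 genes measured over the 2 sides in control, 36 (0.643%) were at least 2-fold higher on the Gpnmb and Trem2 side and 27 (0.482%) at least 2-fold lower. Ctsk, a protease known from osteoclasts, stood at 7.78 CPM on the Igf1 and Prg4 side and 112 CPM on the Gpnmb and Trem2 side, 14.4-fold higher (12.7 to 16.4). Spp1 stood at 17.7 and 202 CPM, 11.4-fold higher (10.4 to 12.5), and Fabp5 at 354 and 1671 CPM, 4.71-fold higher (4.60 to 4.84). Each is a gene of bone-resorbing or lipid-laden macrophages by textbook knowledge. The platelet factor gene Pf4 stood at 21.2 and 88.0 CPM, the alarmin gene Il33 at 35.0 and 130 CPM and the phospholipid transfer gene Pltp at 30.1 and 90.7 CPM. Meis3, Agt, Psat1 and Tbc1d23 were between 2.84-fold and 4.41-fold higher. The gate gene Fabp4 was also higher on this side, at 821 and 1832 CPM, and Mrc1 was lower, at 1496 and 871 CPM.

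On the lower end, 3 of the 10 named genes belong to leukotriene synthesis. Ltc4s stood at 228 CPM on the Igf1 and Prg4 side and 72.5 CPM on the Gpnmb and Trem2 side, 3.15-fold lower (2.85 to 3.49). Alox5 stood at 142 and 62.2 CPM, 2.28-fold lower, and Alox5ap at 715 and 317 CPM, 2.26-fold lower. Serpinb10, a protease inhibitor, stood at 504 and 217 CPM. The receptor partner gene Ramp3, the substance P precursor gene Tac1, Sirpb3, Ccnd3, Clec2l and Id1 were between 2.16-fold and 2.85-fold lower.

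By list, counts past 2-fold stand against 0.643% of all genes higher and 0.482% lower. Lysosomal genes leaned to the Gpnmb and Trem2 side, with 17 of 19 above the median gene but 1 at least 2-fold higher, Ctsk. Their median log2 ratio was 0.49. Ctsd stood at 3981 and 7017 CPM, Ctsb at 892 and 1495 CPM and Lgmn at 266 and 484 CPM. Of 14 lipid-associated macrophage genes other than the split genes, 3 were at least 2-fold higher, Spp1, Fabp5 and Syngr1, and 13 lay above the median gene, with a median of 0.56. Of 10 cholesterol export genes 2 were higher, Pltp and Abca1, the latter at 167 and 343 CPM. In the iron list 9 of 10 lay above the median gene with 0 past 2-fold, Fth1 at 21509 and 32328 CPM and Ftl1 at 4047 and 6852 CPM. Of 12 eicosanoid genes 4 were at least 2-fold lower, against 0.482% of all genes, with a median of -0.49. The fourth was Alox15 at 66.6 and 18.4 CPM. Complement genes had 8 of 10 below the median gene, and Cfp, which encodes properdin, stood at 75.1 and 39.8 CPM. The transcription factor genes Bhlhe41, at 203 and 311 CPM, and Pparg, at 131 and 104 CPM, went opposite ways. Mitf stood at 88.6 and 65.8 CPM.

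The same split in the explosion library gave all 20 named genes the same direction, on fewer UMIs. It was drawn there almost by Gpnmb alone. The Gpnmb and Trem2 side held 27 Trem2 and 2513 Gpnmb UMIs in explosion, and 3164 and 16928 in control. There 97 of 6912 genes (1.4%) were at least 2-fold higher and 119 (1.72%) at least 2-fold lower. Of the 10 highest named genes 4 were past 2-fold and 6 had an interval above equality, and of the 10 lowest 6 were past 2-fold and 9 had an interval below it. Ctsk stood at 3.94 and 118 CPM, 30.1-fold higher (13.5 to 79.1), Spp1 at 92.8 and 1571 CPM, 16.9-fold higher (14.2 to 20.2), and Fabp5 at 140 and 629 CPM, 4.49-fold higher. The Ctsk ratio rested on 7 UMIs on the Igf1 and Prg4 side and 45 on the other. Of the gated explosion barcodes, 5 held 50% of all Ctsk UMIs. The Pf4 ratio of 1.25 (0.301 to 3.92) rested on 15 UMIs on the Igf1 and Prg4 side and 4 on the other, and its interval held equality. Pltp, at 1.36-fold (0.817 to 2.19), and Il33, at 1.51-fold (0.692 to 3.06), also held equality. Alox5, Alox5ap and Serpinb10 were 2.27-fold, 2.07-fold and 2.74-fold lower.

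**Figure D5:**
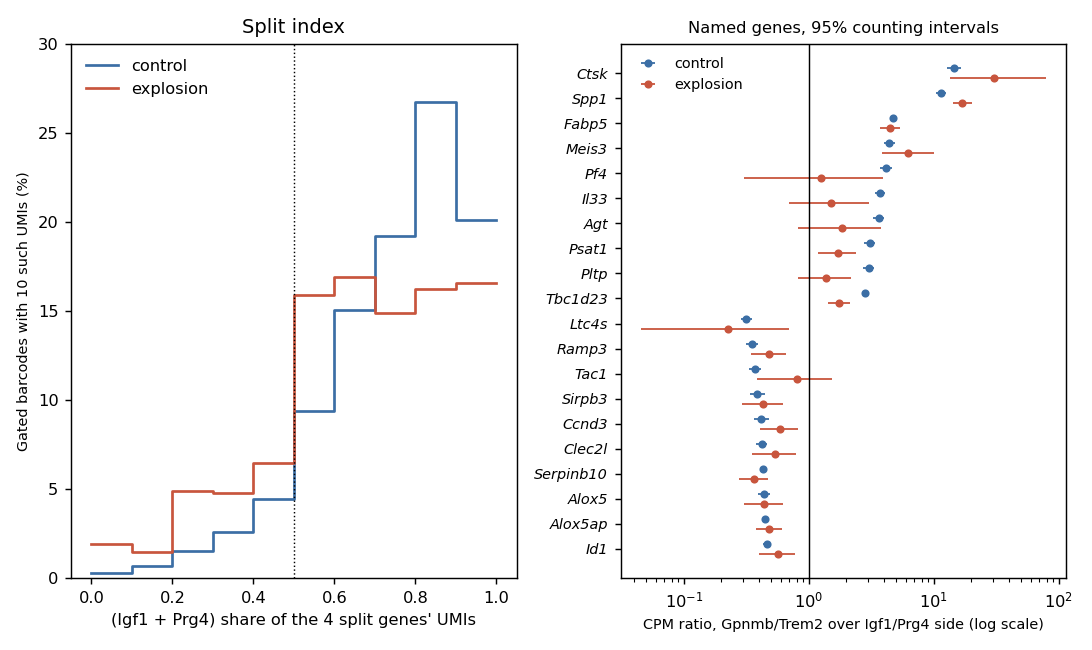
Left, share of gated barcodes (y axis, percent) by the share of Igf1 and Prg4 among the UMIs of the 4 split genes (x axis), in control (blue) and explosion (red), for barcodes with at least 10 such UMIs, with a dotted line at 0.5. Right, CPM ratio of the Gpnmb and Trem2 side over the Igf1 and Prg4 side (x axis, log scale) of the 20 named genes with 95% counting intervals, where Ctsk and Spp1 lie furthest to the right in both libraries, at 14.4 and 11.4 in control.

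What the split showed depended on which of its genes drew the line. With Igf1 set against Trem2 alone, 166 control barcodes (2.06%) fell on the Trem2 side and 7437 (92.1%) on the other. Spp1 was then 1.33-fold higher (1.00 to 1.73) and Ctsk 2.40-fold, while Pf4 was 8.61-fold higher (7.49 to 9.87) and Pltp 4.43-fold. Ltc4s stayed lower, by 3.52-fold. Dividing the barcodes thinned to 2000 UMIs by 1 gene at a time gave a like picture. Spp1 was 6.36 times as high in barcodes with at least 3 Gpnmb UMIs as in those with at most 1, and 1.87 times as high in barcodes with a Trem2 UMI as in those without. Pltp was 3.57 times as high with a Trem2 UMI.

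Spp1 RNA sat in few barcodes. This division was chosen after its values were seen, and is a description. In control 2014 Spp1 UMIs lay in 348 gated barcodes, and 44 of these (0.545% of the gate) held 50% of them. In explosion 829 UMIs lay in 185 barcodes, and 27 (1.47% of the gate) held 50%. At least 2 Spp1 UMIs were found in 208 gated control barcodes (2.58%, 2.24 to 2.95) and 115 gated explosion barcodes (6.28%, 5.21 to 7.49), against 43 of 13046 ungated control and 12 of 10811 ungated explosion barcodes. Doublet calls among these gated barcodes were 8.17% and 8.70%, near those of the whole gate.

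Ctsk was the gene furthest up in the Spp1-bearing barcodes of both libraries of the 17 genes looked at, though most of these barcodes held none. Against gated barcodes without a Spp1 UMI, Ctsk stood at 275 and 8.10 CPM in control, 34.0-fold higher (29.9 to 38.6), and at 217 and 6.36 CPM in explosion, 34.1-fold higher (17.8 to 69.8). In control 68 of 208 Spp1-bearing barcodes (32.7%) and 220 of 7723 Spp1-free ones (2.85%) held a Ctsk UMI, and in explosion 15 of 115 and 12 of 1646. The folds rested on few barcodes, since 11 of the 208 in control and 3 of the 115 in explosion held 50% of their Ctsk UMIs. Gpnmb was 2.17-fold and 3.08-fold higher, Fabp5 2.59-fold and 3.89-fold, and the heme oxygenase gene Hmox1 1.83-fold and 2.15-fold. Prg4 stood at 0.740 and 0.686 times and Mrc1 at 0.699 and 0.693 times the level of the Spp1-free barcodes. Other markers of these cells lay closer to level, with Krt79 at 0.961 and 0.979 times and Lyz2 at 0.879 and 0.830 times. Spp1-bearing and Trem2-bearing barcodes overlapped in part. In control 1265 barcodes had at least 2 Trem2 UMIs, and 68 of them had at least 2 Spp1 UMIs, against 208 of all 8071 gated barcodes. In explosion 14 had at least 2 Trem2 UMIs, 4 of them with at least 2 Spp1 UMIs, against 115 of all 1831. Spp1 was thus more frequent among Trem2-bearing barcodes than in the whole gate, and the part of depth in this was not tested. Against control barcodes without Trem2, the Trem2-bearing ones held Pf4 at 84.6 and 9.61 CPM, 8.79-fold higher (7.79 to 9.94), Pltp 4.51-fold and Fabp4 1.90-fold higher. The depth of the Spp1-bearing barcodes, at a median of 8011 UMIs in control and 1402 in explosion, was above the 6101 and 1195.5 of the Spp1-free ones. Trem2-bearing control barcodes were also deeper, at a median of 8634 UMIs against 5748.5 in those without Trem2.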

How the data were processed

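The authors deposited UMI counts per gene and barcode for 2 lung libraries, not normalized, as 10x matrices of 42172 genes. The writing program was cellranger 7.1.0, per the file headers. Per the submitters' processing notes, bcl2fastq 2.20 and Cell Ranger 6.1.1 were used, and rn6 and mRatBN7.2 are listed as builds without saying which served for what. The sources used here do not give the annotation. Both matrices hold called cells, so empty droplets were not used here. The gene lists, markers and members were chosen with earlier results of these data known.

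Gated UMIs were summed per library and scaled to CPM. Ratios of CPM have exact conditional Poisson intervals and shares exact Clopper-Pearson intervals at the 95% level. UMIs stand for captured molecules, and the intervals cover counting error only. A gene was measured at a mean of at least 20 CPM over the groups compared. Named were the genes of the 10 highest and 10 lowest ratios, out of those that had a symbol, a mean of at least 50 CPM, an interval that excludes 2-fold and, where higher, a gated CPM of at least the ungated one, leaving out mitochondrial, ribosomal protein, hemoglobin, immunoglobulin, T cell receptor, gate, split and other cell type marker genes; Trem2, a split gene, stayed in for the libraries' comparison. The gate genes, split genes and the 2 highest and 2 lowest members of each list were named besides, and other members given were chosen after their values were seen. Of 431 list genes 426 were found. Doublets were called per library with Scrublet in scanpy 1.11.5 and kept. For shares of barcodes with a UMI, barcodes were thinned to 500 UMIs, which left out 43 gated explosion barcodes. Python 3.11.15, numpy 2.4.6, scipy 1.17.1, pandas 2.3.3 and matplotlib 3.10.9 were used, and the scripts were tested on simulated data. Alternatives covered the gate, depth, doublets, shared barcodes, scaling, the CPM filter and the genes of the split. Promoter windows came from a RefSeq table of GRCr8, which may differ from the build used for counting, and were used for sequence only. They were found for all 4 split genes, 7 of the 10 highest and 9 of the 10 lowest genes of the split.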

Additional observations from a re-analysis of the deposited data

How the results depend on the processing

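No paired analysis was possible because each group had 1 library. The gated share of explosion barcodes was 26.5% at 500 UMIs and over, which put the libraries -11.7 points apart (explosion minus control). With barcodes thinned to 500 UMIs before the gate the shares were 24.6% in control and 20.8% in explosion, -3.85 points apart. With 4 genes and 1% of UMIs they were 8.10% and 8.08%, -0.021 points apart, and without Gpnmb in the gate 33.0% and 12.8%, -20.3 points apart. Against 1891 genes at least 2-fold higher and 605 lower in explosion, there were 464 and 294 at a mean of 100 CPM and over, 5947 and 1941 with no CPM filter, and 640 and 1239 relative to the median gene. Of 330 values of named genes over the alternatives 328 kept their sign, as did 185 of 195 list medians. For the split, thinning to 2000 UMIs put 84.0% and 11.3% of control barcodes on the Igf1 and Prg4 side and on the Gpnmb and Trem2 side and left 17 genes at least 2-fold lower, and Igf1 against Trem2 gave 92.1% and 2.06% with 47 lower. At 100 CPM and over 9 genes were higher and 11 lower, and in the explosion library 97 and 119. Of 217 values of named genes 213 kept their sign, as did 134 of 143 list medians. Both counts of named genes include gate and split genes, and the other named genes were picked for an interval beyond 2-fold. Their kept signs were thus largely fixed by that choice and support nothing. Fewer genes are tested at 100 CPM, and the cause of the other shifts was not tested. The explosion depth, a median of 1211 UMIs per gated barcode, limits shares of barcodes with a low gene, and 34 explosion B cell barcodes limit the background.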
